A study of Mus musculus with 32 samples.

Results

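A set of 8 transcription factors that pattern the limb and its muscles was followed through the muscle transcriptomes of GNE knock-in mice: the T-box factors Tbx1, Tbx2, Tbx3, Tbx4 and Tbx15, the paired-type homeodomain factor Pitx1, and the sine oculis homologues Six2 and Six4. The 8 genes were taken by their symbols from the deposited table, which lists 54838 genes, and all 8 had a count value for each of the 32 libraries, which for Pitx1 was 0 in 1 library. RNA was sequenced from 3 muscles, the gastrocnemius, the quadriceps and the tibialis, of male mice no older than 3 months. The wild-type mice were healthy. The other mice were GNE M743T/M743T knock in, homozygous for a methionine-to-threonine change in the enzyme that starts sialic acid synthesis, which in people is mutated in GNE myopathy, and the labels divide them into a healthy and a sick group without saying what set them apart. The wild type had 4 libraries per muscle, the healthy knock-in 3 for the gastrocnemius and 4 for the quadriceps and the tibialis, and the sick knock-in 3 per muscle. The design gives 4 mice per state, so libraries of different muscles may come from the same mouse, but the labels do not tie libraries to mice. The p-values therefore measure the spread between these libraries.

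T-box proteins bind DNA through a shared domain and activate or repress genes in doses that the embryo reads as position. Pitx1 and Tbx4 act in the hindlimb, where Pitx1 sets hindlimb identity and Tbx4 supports outgrowth, while the sine oculis homologues work with Eya coactivators upstream of the myogenic genes and of the fast fibre programme. Many such genes stay on in adult muscle, where they differ between muscles.

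Every library carried muscle RNA: the 7 skeletal muscle fibre markers were detected in every group and summed to 90263 to 188140 CPM per library, the gene's reads relative to library size after TMM scaling. Total counts per library ran from 7685164 to 42588233. Library position was measured on a muscle scale built from 52 genes, none of them a member, that differed between the healthy knock-in gastrocnemius, set to 0, and the healthy knock-in tibialis, set to 1. The wild-type and sick tibialis libraries lay between 0.93 and 1.37. A pair of gastrocnemius libraries stood apart on this scale: wild-type replicate 3 lay at 0.94 and sick replicate 1 at 0.91, whereas the other 5 wild-type and sick gastrocnemius libraries lay between 0.14 and 0.67. Sick quadriceps replicates 2, 3 and 4 lay at 0.87, 0.76 and 0.53. The results on the gastrocnemius are given with and without that pair. The pair was picked for lying near the tibialis, so leaving it out tends to widen differences between these muscles. Those fits are therefore no separate support for such differences.

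The members differed widely in level when compared per kilobase of exon. Tbx15, which shapes the skeleton and the glycolytic fibre programme, was the most abundant, with a median of 75.1 CPM per kb over the 32 libraries. Six2, a factor known from kidney progenitors and from connective tissue, had a median of 9.54 CPM per kb, and Tbx1, known from the head muscles and the pharynx, had 9.15. Six4, a factor of early muscle development, had 2.01, Tbx2 had 1.73, Tbx3 had 1.36 and Tbx4 had 0.688. Pitx1 was the lowest at 0.217 CPM per kb, and its raw counts ran from 0 to 70. Within a gene the range was widest for Tbx1, whose raw counts ran from 5 to 4100. Tbx15, Tbx2 and Tbx4 varied less, with 3.72, 3.79 and 3.70 times between their lowest and highest CPM.

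**Figure D1:**
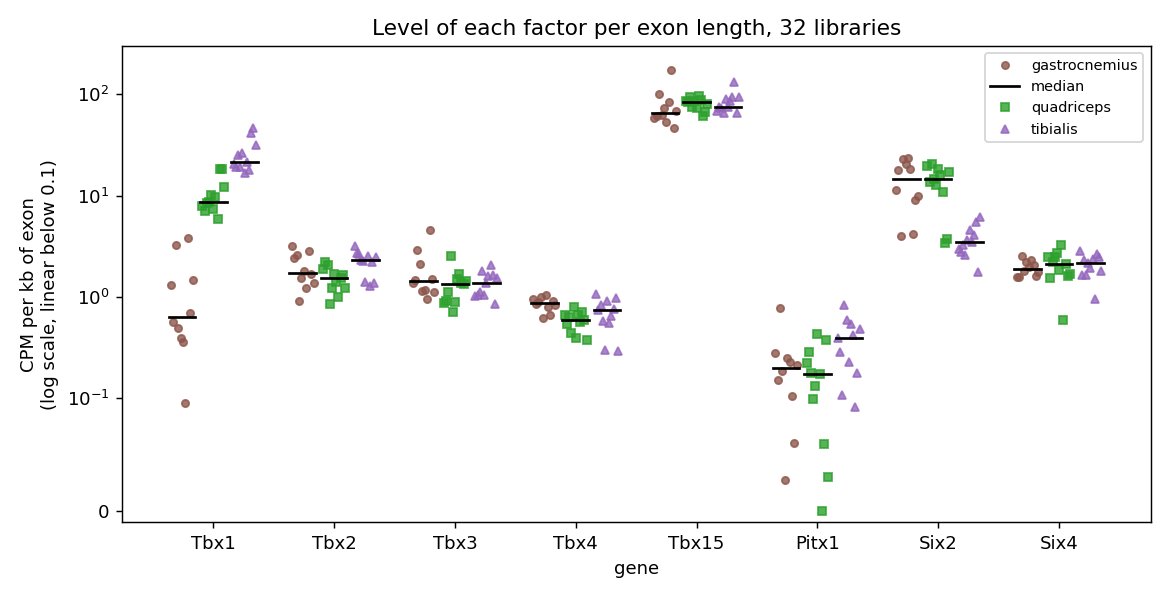
Level of the 8 factors in each of the 32 libraries, as CPM per kb of exon on a log scale that is linear below 0.1, with points coloured and shaped by muscle and a bar at the median of each muscle. Tbx15 lies highest and Pitx1 lowest, and the muscle medians lie apart for Tbx1 and, for the tibialis, in Six2. With the states pooled, the quadriceps and tibialis ranges of Tbx1 overlap, and the tibialis range of Six2 overlaps those of both other muscles.

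Tbx1 is on chromosome 16 at chr16:18580979-18590671 (GRCm38, minus strand) and Six2 on chromosome 17 at chr17:85684277-85688274 (minus strand). They are the members whose level differed between muscles, so the 250 bases before a RefSeq start (GRCm38.p6, for Tbx1 the more upstream of those listed) are shown, read 5′ to 3′ on the gene's strand, from chr16:18590672-18590921 and chr17:85688255-85688504.
Tbx1: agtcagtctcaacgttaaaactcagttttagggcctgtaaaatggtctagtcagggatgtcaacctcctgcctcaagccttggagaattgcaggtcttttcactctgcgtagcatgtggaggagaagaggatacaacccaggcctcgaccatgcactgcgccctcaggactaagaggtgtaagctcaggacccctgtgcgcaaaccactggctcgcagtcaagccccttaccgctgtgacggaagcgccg
Six2: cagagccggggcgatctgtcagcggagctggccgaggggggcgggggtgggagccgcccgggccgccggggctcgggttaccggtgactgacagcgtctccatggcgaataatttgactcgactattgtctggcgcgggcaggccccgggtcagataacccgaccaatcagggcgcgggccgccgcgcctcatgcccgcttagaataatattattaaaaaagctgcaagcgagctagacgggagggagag
Neither window held a T-box site (AGGTGTGA), a Pitx site (TAATCC) or a MEF3 site (TCAGGTT, the site that Six4 and its relatives bind in muscle genes) on either strand, and so no base is in capitals; these letters occur in 1.12%, 6.25% and 3.49% of the 32851 windows of the same length. The table of starts held 4 of the 8 members, and among their 6 windows the only match to these motifs was a MEF3 site before an internal RefSeq start of Six4.

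Tbx1 was lowest in the gastrocnemius, higher in the quadriceps and highest in the tibialis in every state. In the wild-type gastrocnemius the 4 libraries read 4.599, 2.01, 11.5 and 1.75 CPM, in the quadriceps 27.8, 24.7, 29.5 and 30.6 CPM, and in the tibialis 72.6, 67.3, 89.5 and 67.4 CPM. No library of one muscle overlapped another muscle's range, and the high gastrocnemius value of 11.5 belonged to the replicate that stood apart. Tbx1 was 2.72 ± 0.40 higher on the log2 scale (SE) in the quadriceps than in the gastrocnemius, a fold of 6.57 (adjusted p = 0.00457). The tibialis exceeded the gastrocnemius by 4.14 ± 0.40, a fold of 17.6 (adjusted p = 7.29e-05), and the quadriceps by 1.42 ± 0.33, a fold of 2.67 (adjusted p = 0.0253). Without the gastrocnemius library that stood apart, picked for its likeness to the tibialis, the differences from the gastrocnemius were larger. They were 3.35 for the quadriceps (adjusted p = 0.000553) and 4.76 for the tibialis (adjusted p = 9.95e-06). The tibialis call over the quadriceps was lost in 6 of 8 fits that left out 1 library (quadriceps replicates 1, 2 and 3, tibialis replicates 1, 2 and 3), with adjusted p from 0.0551 to 0.0929 and log2 differences from 1.32 to 1.47.

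In the healthy knock-in the gastrocnemius read 1.396, 1.27 and 0.338 CPM, resting on 43 reads in all, against 35.8, 26.2, 33.7 and 20.8 CPM in the quadriceps and 93.6, 58.8, 75.8 and 63.5 CPM in the tibialis. Again the 3 muscles did not overlap. Tbx1 was 5.07 ± 0.55 higher in the quadriceps than in the gastrocnemius on the log2 scale (adjusted p = 0.0207) and 6.38 ± 0.54 higher in the tibialis, a fold of 83.4 (adjusted p = 0.000626). The tibialis was 1.31 ± 0.21 above the quadriceps, which missed the threshold (adjusted p = 0.0697) and passed it with the replicate number as a block (1.31, adjusted p = 0.00299). The quadriceps call was lost without gastrocnemius replicate 1 or 2 or quadriceps replicate 1 or 3, with adjusted p from 0.0571 to 0.187 at differences of 4.97 to 5.40.

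In the sick knock-in Tbx1 read 13.6, 2.45 and 5.20 CPM in the gastrocnemius, 64.3, 63.7 and 42.7 CPM in the quadriceps, and 145, 163 and 110 CPM in the tibialis. The muscles kept the same order with no overlap. The fitted differences were 3.37 ± 0.49 for the quadriceps over the gastrocnemius (adjusted p = 0.47), 4.65 ± 0.50 for the tibialis over the gastrocnemius (adjusted p = 0.0927) and 1.28 ± 0.42 for the tibialis over the quadriceps (adjusted p = 0.529). The limma-voom fit called 0 of 13768 genes in each of these sick comparisons, although 253, 958 and 910 genes had an unadjusted p under 0.05 and limma-trend called 1, 3 and 0. Sick gastrocnemius replicate 1 stood apart by its likeness to the tibialis. Without that library the tibialis exceeded the gastrocnemius by 5.34 ± 0.39 (adjusted p = 0.00879) and the quadriceps exceeded the gastrocnemius by 4.06 ± 0.38 (adjusted p = 0.0675). With all 32 libraries in 1 fit, which shares the spread between groups, Tbx1 was 3.38 higher in the quadriceps (adjusted p = 0.000696) and 4.67 higher in the tibialis (adjusted p = 2.96e-06) than in the gastrocnemius.

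**Figure D2:**
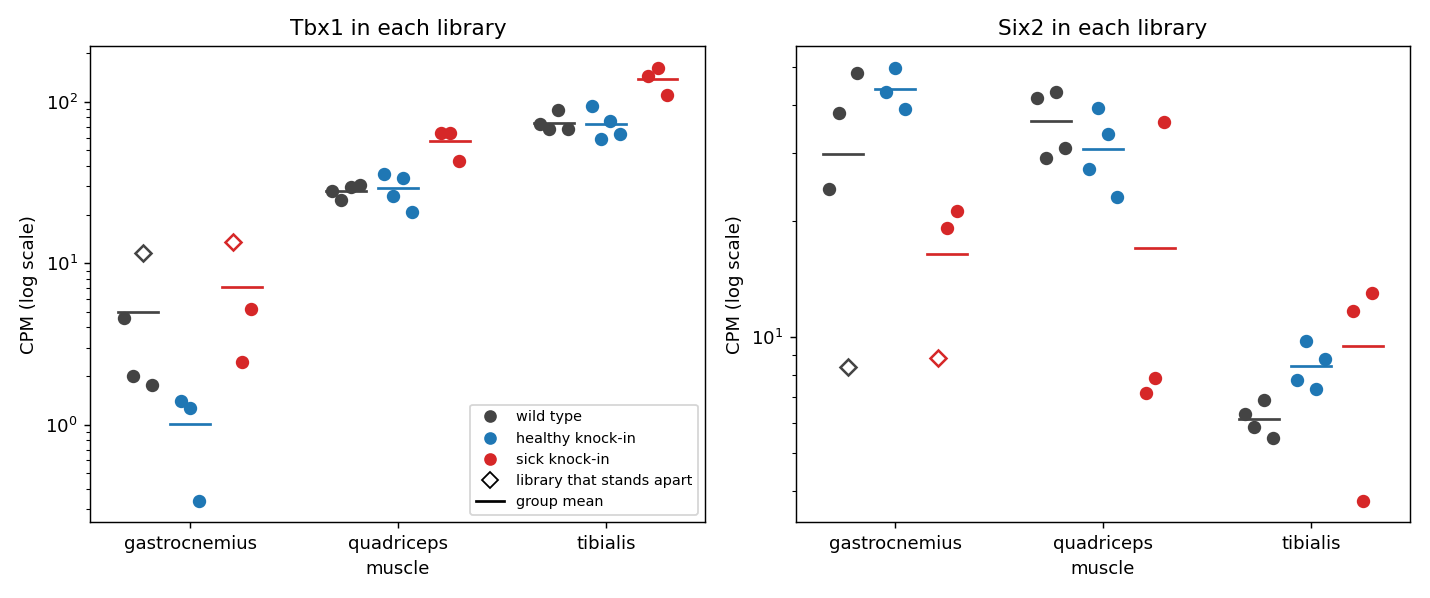
Tbx1 (left) and Six2 (right) in each library, as CPM on a log scale, by muscle and coloured by state, with a bar at each group mean and open diamonds for wild-type gastrocnemius replicate 3 and sick gastrocnemius replicate 1. Tbx1 is lowest in the gastrocnemius and highest in the tibialis in all 3 states, from means of 4.98 to 74.2 CPM in the wild type, and Six2 is lowest in the tibialis, with a wild-type mean of 6.13 CPM.

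Six2 followed another order, high in the gastrocnemius and the quadriceps and low in the tibialis. The wild-type gastrocnemius read 24.2, 38.1, 8.38 and 48.2 CPM, the quadriceps 41.7, 29.1, 43.1 and 31.0 CPM, and the tibialis 6.30, 5.86, 6.88 and 5.47 CPM. The tibialis lay below every library of the other muscles, and the lowest gastrocnemius value was that of the replicate that stood apart. Six2 was lower in the tibialis than in the quadriceps by 5.78 times (log2 -2.53 ± 0.48, adjusted p = 0.0105), and lower than in the gastrocnemius by 3.96 times (-1.99 ± 0.48, adjusted p = 0.0487). The call against the gastrocnemius was lost without any 1 of the 4 tibialis libraries or of gastrocnemius replicates 1, 2 and 4, with adjusted p from 0.0796 to 0.132. Without gastrocnemius replicate 3, which was picked for its likeness to the tibialis, the difference was -2.52 ± 0.26 (adjusted p = 0.000346).

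In the healthy knock-in Six2 read 43.1, 49.9 and 39.0 CPM in the gastrocnemius, 27.2, 39.2, 33.5 and 23.0 CPM in the quadriceps, and 7.76, 9.77, 7.34 and 8.75 CPM in the tibialis. The tibialis again overlapped neither muscle, and the gastrocnemius and the quadriceps overlapped only at 39.0 and 39.2 CPM. Six2 was lower in the tibialis than in the gastrocnemius (-2.34 ± 0.19, adjusted p = 0.000496) and than in the quadriceps (-1.85 ± 0.18, adjusted p = 0.00434), and neither call was lost in the fits that left out 1 library. In 1 fit of all 32 libraries the difference from the quadriceps was -1.84 with an adjusted p of 0.26. In the sick knock-in the muscles overlapped: the gastrocnemius read 8.82, 19.2 and 21.3 CPM, the quadriceps 7.17, 7.86 and 36.0 CPM, and the tibialis 11.7, 3.77 and 13.0 CPM. No sick muscle difference in Six2 passed the test (adjusted p of 0.887 or more). Between the quadriceps and the gastrocnemius Six2 passed in no state (0.54 ± 0.41 in the wild type, -0.49 ± 0.17 in the healthy knock-in and -0.26 ± 0.70 in the sick knock-in).

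The gastrocnemius libraries that stood apart also stood apart in Tbx1 and Six2, but within other groups the values did not follow library position throughout. The gastrocnemius pair at 0.94 and 0.91 on the muscle scale held the 2 highest gastrocnemius values of Tbx1, 11.5 and 13.6 CPM, and the 2 lowest of Six2, 8.38 and 8.82 CPM. Their Tbx1 still lay below the lowest quadriceps value of 20.8 CPM, whereas their Six2 lay within the tibialis range of 3.77 to 13.0 CPM. Among the sick quadriceps, replicates 2 and 3, at 0.87 and 0.76, had Six2 values of 7.17 and 7.86 CPM, and replicate 4, at 0.53, had 36.0 CPM. Elsewhere the order differed: sick gastrocnemius replicate 2, at 0.53, had less Tbx1 (2.45 CPM) than replicate 3 at 0.38 (5.20 CPM), the sick tibialis library at 0.93 had the highest Six2 of its group (13.0 CPM), and wild-type quadriceps Six2 was 29.1 CPM at 0.32 and 43.1 CPM at 0.41. Pearson's r between log2 CPM of Tbx1 and Six2 was -0.66 over the 32 libraries, which share muscles and states.

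**Figure D3:**
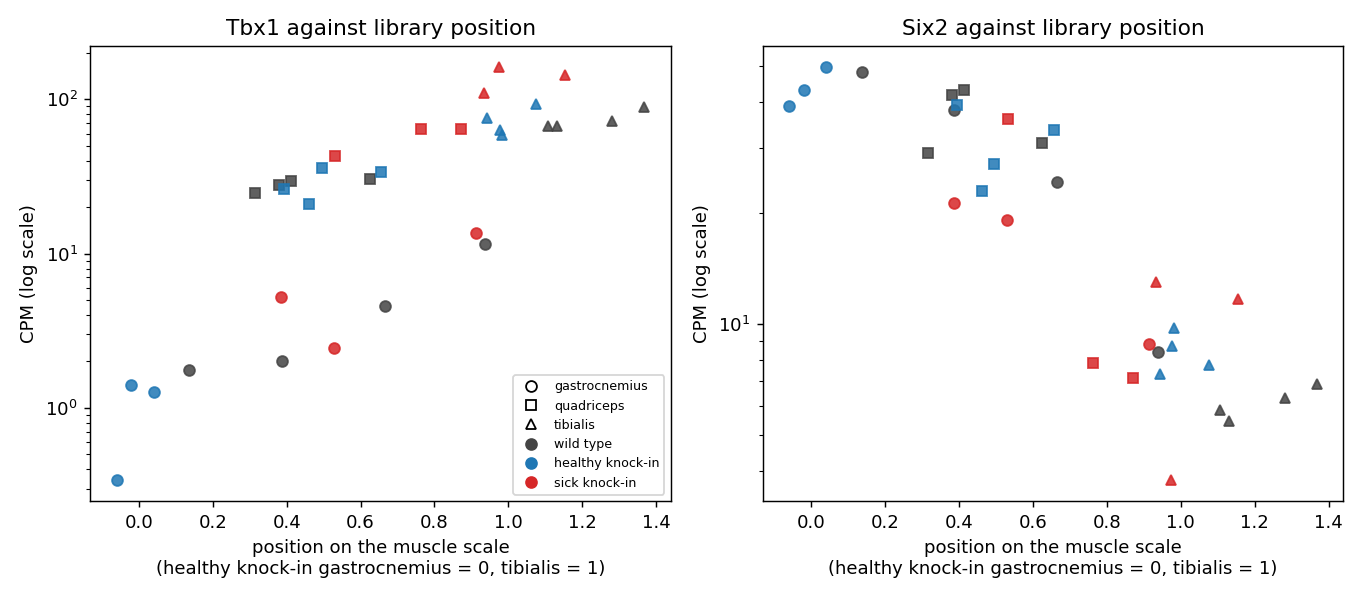
CPM of Tbx1 (left) and Six2 (right) on a log scale against the position of each library on the muscle scale, where 0 is the healthy knock-in gastrocnemius and 1 the healthy knock-in tibialis, with shape for muscle and colour for state. Tbx1 stays below 20.8 CPM in the gastrocnemius at every position, and the Six2 values of sick quadriceps replicates 2 and 3, 7.17 and 7.86 CPM, lie among those of the tibialis.

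Members past the threshold were few, and were set against all genes tested. In the wild type 1 of 8 members (Tbx1) passed between quadriceps and gastrocnemius, where 1.07% of 14708 genes passed, 2 (Tbx1 up, Six2 down) between tibialis and gastrocnemius, where 2.58% passed, and both again between tibialis and quadriceps, where 5.67% passed. In the healthy knock-in 1, 2 and 1 of 8 passed in these comparisons, against 0.0710%, 0.384% and 0.0781% of 14077 genes. In the sick knock-in 0 of 7 tested members and 0% of genes passed. The ranges of 2, 2 and 4 members did not overlap in the wild type, where 5.67%, 7.84% and 16.6% of 15229 genes did not. For the healthy knock-in the numbers were 1, 2 and 2 against 5.71%, 12.8% and 4.88%, and for the sick knock-in 1 (Tbx1), 1 and 1 against 5.82%, 11.3% and 11.9%. The median log2 difference of the members was -0.07, 0.10 and 0.30 in the wild type, where that of all genes was -0.01, -0.00 and -0.00. In the healthy knock-in the members' medians were -0.03, 0.27 and 0.16 against 0.01, 0.01 and -0.01, and in the sick knock-in -0.26, -0.01 and 0.32 against 0.02, 0.01 and 0.01. Comparisons within a state share their libraries. With the replicate number as a block, the genes called in the healthy knock-in rose from 10, 54 and 11 to 41, 858 and 261, and in the wild type from 158 and 834 to 253 and 1610 where the quadriceps was compared. In the sick knock-in, with 2 pairs per comparison, the genes called went from 0, 0 and 0 to 0, 55 and 34, none of them a member.

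Markers of other cell types also differed between these muscles. All 7 Schwann cell markers were lower in the wild-type quadriceps and tibialis than in the gastrocnemius, where they summed to 593 to 1362 CPM per library against 114 to 148 and 147 to 317 CPM. Kidney tubule markers summed to 61.7 to 82.3 CPM in the wild-type tibialis, with 1 of the 14 at 0 in replicates 1 and 3 and none in the other libraries, and to no more than 1.36 CPM in the wild-type gastrocnemius and quadriceps. In the wild-type tibialis 3 of 12 markers of fibro-adipogenic progenitors and 3 of 9 tendon markers were lower than in the gastrocnemius, and 4 of 12 and 1 of 9 lower than in the quadriceps, where 6 of 7 adipocyte markers were higher. Endothelial markers summed to 620 to 870 CPM in the wild-type tibialis and 458 to 524 CPM in the quadriceps, and 2 of 8 (Tie1 and Pecam1) were higher in the tibialis, as was 1 of 8 smooth muscle and pericyte markers (Rgs5). Their part in the muscle differences of Tbx1, Six2 and Tbx2 was not tested. In the healthy knock-in the kidney markers summed to 0.36 to 2.24 CPM in the tibialis and to 0.441, 23.9 and 1.15 CPM in the gastrocnemius replicates, and were not tested. No marker of the other cell types passed there between tibialis and gastrocnemius. That fit called 54 of 14077 genes, so a marker without a call may still differ. Schwann cell markers summed to 57.3 to 778 CPM in the healthy knock-in gastrocnemius and 70.4 to 258 CPM in the tibialis. In the wild type Myl2, a light chain of slow fibres, was lower in the quadriceps (-8.87) and the tibialis (-6.37) than in the gastrocnemius, among 2 of 12 slow fibre genes that were lower in each.

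**Figure D4:**
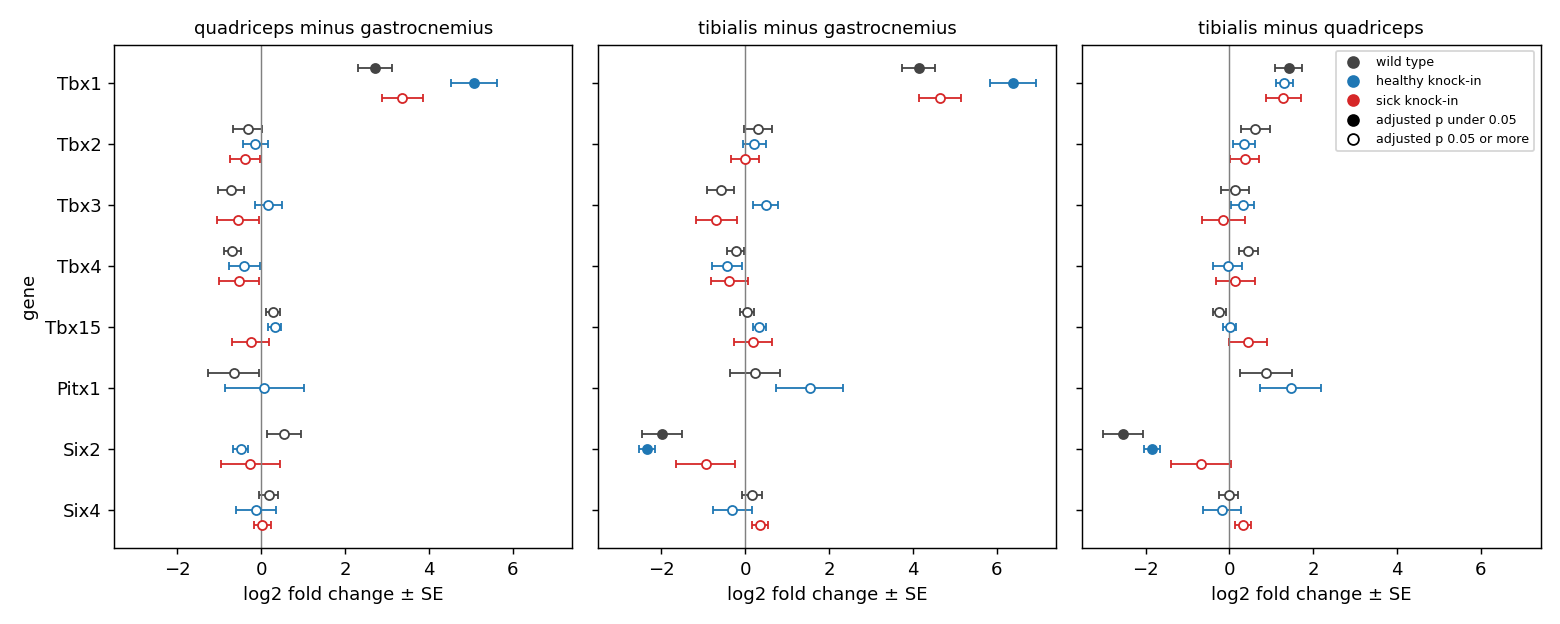
Fitted log2 fold change ± SE of each member in the 3 muscle comparisons, coloured by state, with filled points where the adjusted p was under 0.05. Tbx1 lies right of 0 in all 9 comparisons, from 1.28 to 6.38, Six2 lies left of 0 wherever the tibialis is compared, and no other member has a filled point. Pitx1 was not tested in the sick muscle comparisons.

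No muscle difference of Tbx15 or of Tbx2, Tbx3 and Tbx4 passed the test. Tbx15 on chromosome 3 had group means between 260 CPM (sick quadriceps) and 365 CPM (sick tibialis), its fitted differences over 18 comparisons ran from -0.30 to 0.44, and none passed (lowest adjusted p = 0.139). Its wild-type tibialis (255, 279, 272 and 247 CPM) lay below its quadriceps (323, 311, 354 and 284 CPM) without overlap. The sick gastrocnemius libraries read 649, 174 and 258 CPM, the highest being replicate 1, which stood apart, and wild-type gastrocnemius replicate 3 was likewise the highest of its group at 375 CPM against 219, 230 and 233 CPM. In the tibialis, sick replicate 2 read 242 CPM beside 496 and 355 CPM, and without it Tbx15 was 0.69 higher in the sick than in the wild-type tibialis (adjusted p = 0.0351).

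Tbx2 and Tbx4 lie 44.5 kb apart on chromosome 11, Tbx2 at chr11:85832551-85841948 and Tbx4 at chr11:85886422-85916097, both on the plus strand. Tbx2, a repressor that in many tissues holds back cell cycle inhibitors, had group means from 4.803 CPM in the healthy knock-in quadriceps to 9.88 CPM in the wild-type tibialis. The wild-type tibialis (11.6, 9.87, 9.63 and 8.38 CPM) lay above the wild-type quadriceps (6.85, 7.96, 7.50 and 3.07 CPM) without overlap, at a log2 difference of 0.62 ± 0.34 that did not pass (adjusted p = 0.31). Tbx4, the hindlimb T-box gene, was low everywhere, with means of 1.90 to 3.16 CPM. Its wild-type gastrocnemius libraries (3.27, 2.91, 3.04 and 3.43 CPM) lay above all 4 quadriceps libraries (2.25, 1.84, 2.18 and 1.49 CPM), a difference of -0.69 ± 0.20 for the quadriceps that missed the threshold (adjusted p = 0.182).

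Tbx3, the close relative of Tbx2 on chromosome 5 (chr5:119670669-119684724), read 30.1 CPM in sick gastrocnemius replicate 1 and 19.1 CPM in wild-type gastrocnemius replicate 3, the pair that stood apart, against 4.69 to 16.7 CPM in the other 30 libraries. Its highest value in the wild-type quadriceps (16.7 CPM), wild-type tibialis (11.9 CPM), healthy knock-in quadriceps (11.2 CPM) and healthy knock-in tibialis (13.6 CPM) was in each case replicate 4. None of its 18 comparisons passed (lowest adjusted p = 0.25), although the healthy knock-in gastrocnemius (7.64, 7.77 and 6.29 CPM) lay below the wild type without overlap. The antisense gene Tbx3os1 overlaps Tbx3 and carried 1030 reads over all libraries beside 5906 for Tbx3; whether the counting used strand is not stated, so their reads cannot be told apart.

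Pitx1, the gene that sets hindlimb identity, gave 454 reads in all 32 libraries, and its values cannot be read as firmly as those of the other members. Group means ran from 0.336 CPM in the sick gastrocnemius to 1.184 CPM in the healthy knock-in tibialis. The healthy knock-in tibialis exceeded the gastrocnemius by 1.54 ± 0.80 (adjusted p = 0.45). Pitx1 fell under the filter on low counts in the quadriceps state comparisons and in the sick muscle comparisons, and none of its 12 other comparisons passed (lowest adjusted p = 0.236). An antisense gene and a non-coding RNA of the same strand overlap it, with 253 and 0 reads.

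Six4 lies on chromosome 12 (chr12:73099609-73113456, minus strand). An internal RefSeq start of this gene has a MEF3 match 97 bases upstream, within the annotated span of the gene and downstream of its 5′ end, shown with 8 bases on each side (chr12:73113328-73113350, minus strand, the match in capitals and read as the reverse complement of TCAGGTT).
Six4 site: ctgggggaAACCTGAtcggccag
Six4 was the steadiest member by group mean, from 19.6 CPM in the sick gastrocnemius to 25.2 CPM in the sick tibialis, and none of its 18 comparisons passed (lowest adjusted p = 0.375). Single libraries spread more: healthy knock-in quadriceps replicate 4 read 6.39 CPM beside 29.5, 20.2 and 35.1 CPM, and the same replicate number read 10.3 CPM in the healthy knock-in tibialis beside 23.3, 20.9 and 25.6 CPM. That quadriceps library also had the highest adipocyte marker sum of the 32, 3305 CPM. Cpeb4 (r = 0.78 on log2 CPM) and Siah2 (0.70) were among the genes most like Six4 over the 32 libraries.

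Tbx1 was higher in the sick quadriceps and tibialis than in the same muscles of either other state. In the quadriceps the sick libraries (64.3, 63.7 and 42.7 CPM) lay above every wild-type (24.7 to 30.6 CPM) and healthy knock-in library (20.8 to 35.8 CPM), and in the tibialis the sick libraries (145, 163 and 110 CPM) lay above every wild-type (67.3 to 89.5 CPM) and healthy knock-in library (58.8 to 93.6 CPM). Tbx1 rose 2.02 times in the sick quadriceps over the wild type (log2 1.01 ± 0.19, adjusted p = 0.0113) and 1.94 times over the healthy knock-in (0.96 ± 0.20, adjusted p = 0.0136). In the tibialis it rose 1.86 times over the wild type (0.90 ± 0.20, adjusted p = 0.0147) and 1.90 times over the healthy knock-in (0.93 ± 0.20, adjusted p = 0.0204). The sick libraries are shared by both comparisons of a muscle. On the muscle scale the sick quadriceps lay at 0.87, 0.76 and 0.53, the order of their Tbx1 values. The wild-type quadriceps lay at 0.32 to 0.62 and the healthy knock-in at 0.39 to 0.66. Sick tibialis replicates 1, 2 and 4 lay at 1.15, 0.97 and 0.93, which is not the order of their Tbx1 values (145, 163 and 110 CPM). The wild-type tibialis lay at 1.11 to 1.37 and the healthy knock-in at 0.94 to 1.08. Sick replicate 2 had the highest position in the quadriceps and the highest sick Tbx1 in both muscles, and its 10 most abundant genes took 19.3% and 20.2% of counts in the quadriceps and tibialis, against 25.5% to 27.9% in the other sick libraries of these muscles. The part of these in the Tbx1 difference was not tested. The call over the wild type was lost without sick quadriceps replicate 2 (0.87, adjusted p = 0.0732). The calls over the healthy knock-in were lost without sick quadriceps replicate 2 or 3 (adjusted p = 0.0801 and 0.0537) and without healthy tibialis replicate 2 or sick tibialis replicate 1 or 2 (adjusted p from 0.0545 to 0.0641). In 1 fit of all 32 libraries 3 of these 4 adjusted p-values lay between 0.0633 and 0.0654.

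In the gastrocnemius no Tbx1 difference passed in the fit of that muscle. The sick libraries (13.6, 2.45 and 5.20 CPM) overlapped the wild type (1.75 to 11.5 CPM), at 0.35 ± 0.72 (adjusted p = 0.762), and lay above the healthy knock-in (0.338 to 1.396 CPM), at 2.63 ± 1.13 (adjusted p = 0.141). In 1 fit of all 32 libraries the sick minus healthy difference passed (2.61, adjusted p = 0.0228). The healthy knock-in lay below the wild type without overlap, with a difference of -2.28 ± 1.09 (adjusted p = 0.654). Without the pair of libraries that stood apart the healthy minus wild-type difference was -1.65 ± 0.65 (adjusted p = 0.835) and the sick minus healthy difference 1.93 ± 0.70 (adjusted p = 0.0951). In the authors' deposited table, whose fit was their own, Tbx1 in the gastrocnemius was lower in the healthy knock-in than in the wild type by a log2 change of -2.33 (adjusted p = 0.0122) and higher in the sick than in the healthy knock-in by 2.83 (adjusted p = 2.11e-05). In the same authors' deposited table the sick minus wild-type change of Tbx1 was 1.02 in the quadriceps (adjusted p = 0.164) and 0.90 in the tibialis (adjusted p = 0.196). The state differences of Tbx1 were not shown to differ between muscles: the sick minus wild-type change differed by 0.65 ± 0.61 between quadriceps and gastrocnemius, 0.54 ± 0.62 between tibialis and gastrocnemius and -0.10 ± 0.50 between tibialis and quadriceps (adjusted p of 0.975 or more). The healthy minus wild-type change in 1 fit of all 32 libraries was -2.26 in the gastrocnemius, 0.04 in the quadriceps and -0.04 in the tibialis. Tests of whether that change differed between muscles did not pass either. For Six2 the lowest adjusted p of these tests was 0.594, for a sick minus wild-type change that was 1.88 ± 0.75 larger in the tibialis than in the quadriceps.

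Six2 was lower in the sick quadriceps than in the wild type by 2.79 times (log2 -1.48 ± 0.44, adjusted p = 0.0422), though the groups overlapped: the sick libraries read 7.17, 7.86 and 36.0 CPM and the wild type 29.1 to 43.1 CPM. The call was lost without any 1 of the 4 wild-type libraries or of sick replicates 2 and 3 (adjusted p from 0.0515 to 0.279), and without sick replicate 4 the difference was -2.25 (adjusted p = 0.000459). With the replicate number as a block, though libraries of different states share only that number, the difference was -1.37 (adjusted p = 0.117). Against the healthy knock-in (23.0 to 39.2 CPM) the sick quadriceps gave -1.27 ± 0.46 (adjusted p = 0.0757), and -2.05 without sick replicate 4 (adjusted p = 0.000896). In the gastrocnemius the sick libraries (8.82, 19.2 and 21.3 CPM) lay below the healthy knock-in (39.0 to 49.9 CPM) without overlap, at -1.52 ± 0.58 (adjusted p = 0.103), at -1.12 ± 0.29 without the libraries that stood apart (adjusted p = 0.0335), and at -1.53 in 1 fit of all 32 libraries (adjusted p = 0.0346). Against the wild type the sick gastrocnemius gave -0.70 ± 0.55 (adjusted p = 0.397), -1.24 without wild-type replicate 3 (adjusted p = 0.0485) and -0.83 ± 0.29 without both libraries that stood apart (adjusted p = 0.0909). The authors' deposited table gives -1.41 for sick minus healthy knock-in in the gastrocnemius (adjusted p = 0.0422). In the tibialis Six2 differed by 0.39 ± 0.36 between sick and wild type (adjusted p = 0.463), and by 1.04 without sick replicate 2, which read 3.77 CPM (adjusted p = 0.0122).

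Over the 8 members, 2 of 7 tested passed between sick and wild-type quadriceps, where 18.0% of genes passed, and 1 of 8 between sick and wild-type tibialis, where 18.1% passed. Against the healthy knock-in 1 of 7 passed in the quadriceps and 1 of 8 in the tibialis, against 17.6% and 11.3% of genes. In the gastrocnemius 0 of 8 passed in either sick comparison, where 14.7% and 14.1% of genes passed. With 8 members, the counts in the sick comparisons are too small to set their share apart from that of all genes. Between healthy knock-in and wild type 0 members passed in any muscle, against 0.00706%, 0.0362% and 0.496% of genes in the gastrocnemius, quadriceps and tibialis. Ranges of 0, 1 and 1 members did not overlap between sick and wild type in the 3 muscles in that order, against 26.5%, 29.0% and 30.1% of genes, and 2, 1 and 1 between sick and healthy knock-in, against 36.5%, 22.9% and 28.3%. Between healthy knock-in and wild type the numbers were 2, 0 and 1 (Six2 in the tibialis), against 8.90%, 3.76% and 3.92%. The members' median difference between sick and wild type was -0.11, -0.19 and 0.09 in the gastrocnemius, quadriceps and tibialis, against -0.03, 0.00 and -0.05 for all genes. None of the 48 tests of whether a member's state difference varied between muscles passed, in comparisons where 0%, 0%, 0.204%, 0.243%, 0.243% and 0.184% of 15229 genes did.

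Some markers of several other cell types moved with the sick state. Fibro-adipogenic progenitors are stromal precursors of fat and scar, and 6 of their 12 markers were lower in the sick than in the wild-type tibialis, as were 6 of 9 tendon markers, with summed levels of 779 to 1571 against 2247 to 4817 CPM and 35.4 to 99.3 against 245 to 865 CPM. In the sick quadriceps 2 of 12 and 1 of 9 were lower, with sums of 2784 to 3927 against 3384 to 7689 CPM and 153 to 608 against 447 to 731 CPM. In the sick gastrocnemius the sums were 1542 to 3196 against 3389 to 7557 CPM and 218 to 439 against 653 to 1505 CPM. Neither sum overlapped the wild type there, and the markers that were lower included Col1a1, Col3a1, Kera and Chad. No marker of either list was at 0 in these libraries except 1 tendon marker in sick tibialis replicate 2. Of 9 satellite cell markers Cdh15 was higher in all 3 sick muscles than in the wild type (1.02, 0.68 and 0.83). Of 8 smooth muscle and pericyte markers only Rgs5 passed, lower in all 3 (-0.89, -0.62 and -0.97). The summed satellite cell markers overlapped the wild type in all 3 muscles, at 68.0 to 143 against 70.9 to 87.1 CPM in the tibialis. In the gastrocnemius the smooth muscle and pericyte sums lay below the wild type (758 to 924 against 931 to 1351 CPM). They also did in the quadriceps (705 to 747 against 927 to 983 CPM) and overlapped in the tibialis (722 to 1241 against 993 to 1326 CPM). Pax7, of satellite cells, was lower in the sick gastrocnemius and quadriceps (-1.23 and -1.43), and the endothelial Tie1 in the sick quadriceps and tibialis (-0.66 and -0.75). Another endothelial marker, Flt1, went the other way in the sick tibialis (0.74, adjusted p = 0.037). The 8 endothelial markers summed to 643 to 767 CPM in the sick and 620 to 870 CPM in the wild-type tibialis. Their part in the rise of Tbx1 and the fall of Six2 was not tested, and in bulk tissue fewer cells of a type and less RNA per cell cannot be told apart. The 7 muscle fibre markers overlapped between the states, at 104592 to 169287 CPM in the sick and 90263 to 133862 CPM in the wild-type tibialis, where 1 of 7 was lower. In the sick tibialis 11 of 11 tested kidney tubule markers were lower than in the wild type, and 0 of 11 passed against the healthy knock-in. The part of kidney RNA in the Tbx1 difference was not tested. In the sick quadriceps 3 of 12 slow fibre genes rose over the wild type, and in the sick tibialis 2 of 12 fell.

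**Figure D5:**
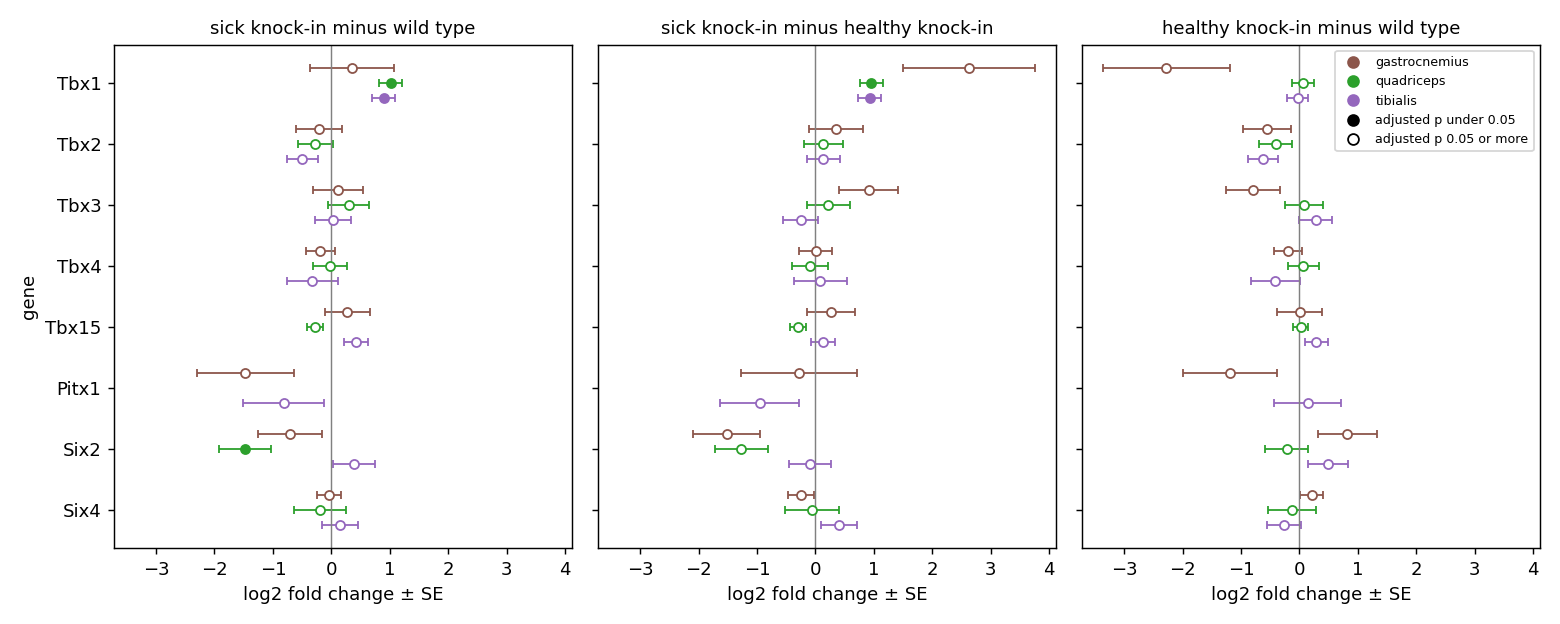
Fitted log2 fold change ± SE of each member in the 3 state comparisons, coloured by muscle, with filled points where the adjusted p was under 0.05. The filled points are Tbx1 in the quadriceps and tibialis of the sick knock-in, between 0.90 and 1.01, and Six2 in the sick quadriceps against the wild type at -1.48. Pitx1 was not tested in the quadriceps.

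The other T-box genes included a gene that was higher in the quadriceps of the wild type, at a low level. Of 12 other T-box genes 5 were tested among the wild-type muscles, and Tbx5, the forelimb and heart counterpart of Tbx4, passed in 2 comparisons: it gave 171 reads in the 4 wild-type quadriceps libraries (1.43 ± 0.65 CPM, SD) against 3 in the gastrocnemius (adjusted p = 0.00308) and 6 in the tibialis (adjusted p = 0.00473). In the sick state 1 of 4 tested rose in the gastrocnemius and the quadriceps and 2 of 4 in the tibialis over the wild type, and none fell. Over all genes 1164 of 14155, 1455 of 13799 and 1226 of 14520 rose in these comparisons, and 923, 1033 and 1395 fell. With 4 genes tested, the counts are too small to set their share apart from that of all genes. Tbx6, a gene of early mesoderm, rose by 1.89, 2.40 and 2.17 in the 3 muscles (adjusted p = 0.00935, 0.013 and 0.0492), and Mga, a T-box protein that also pairs with Max, rose by 1.21 in the tibialis (adjusted p = 0.0111).

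Of 12 other genes of the Pitx, sine oculis, Eya and Dach families, 10 were tested. Eya2, a coactivator of Six4 and its relatives, was lower in the wild-type quadriceps (-1.09, adjusted p = 0.034) and tibialis (-1.12, adjusted p = 0.0255) than in the gastrocnemius, comparisons in which Pitx1 and Six4 did not pass. Pitx3, a relative of Pitx1 with a part in muscle differentiation, rose in the sick gastrocnemius (1.58, adjusted p = 0.0303) and quadriceps (1.89, adjusted p = 0.0166) over the wild type, and Eya4 rose in the sick tibialis (1.19, adjusted p = 0.0162). None of the 10 fell in a sick muscle. Over all genes 923 of 14155, 1033 of 13799 and 1395 of 14520 fell against the wild type in the gastrocnemius, quadriceps and tibialis. Between the healthy knock-in muscles 0 of 10 passed, where 0.0710%, 0.384% and 0.0781% of 14077 genes did. A gene without a call there may still differ.

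Of 24 other limb and muscle positional factors, En1, the homeodomain gene of the ventral limb, had the order opposite to that of Tbx1. In the wild type its means were 6.59 ± 1.28 CPM in the gastrocnemius, 2.68 ± 0.75 in the quadriceps and 0.75 ± 0.24 in the tibialis (SD, n = 4 each). It was lower in the tibialis than in the gastrocnemius at a log2 difference of -3.03 in the wild type (adjusted p = 0.000117) and -3.78 in the healthy knock-in (adjusted p = 0.000356). Osr2, a gene of connective tissue, was higher in the healthy knock-in tibialis than in the gastrocnemius (2.57, adjusted p = 0.0177). In the sick tibialis 4 of 17 tested factors fell against the wild type and 0 rose, where 1395 of 14520 genes fell and 1226 rose. Among the 4 were Prrx2 (-2.77, adjusted p = 0.0274) and Meox1 (-2.63, adjusted p = 0.00792), both mesenchymal homeodomain genes. The progenitor and tendon markers were low in the same libraries, and their part in these falls was not tested.

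The genes most like each member over the 32 libraries, by Pearson's r of log2 CPM among all genes tested, differed between members. Tbx1 was followed by 2310008N11Rik (r = 0.80), Kcnc4, a voltage-gated potassium channel subunit (0.79), and Sim1, a basic helix-loop-helix factor (0.79). Sim1 had a median of 11.1 CPM in the tibialis libraries against 0.235 in the gastrocnemius and 0.374 in the quadriceps, and Tbx1 had medians of 75.8, 2.23 and 30.6 CPM in the tibialis, the gastrocnemius and the quadriceps. Six2 was followed by Cadm1, a cell adhesion molecule (0.82), Nmt2, a myristoyltransferase (0.80), and Cbfb, the partner of Runx factors (0.79). Tbx2 was followed by 2 endothelial genes, Clec14a (0.83) and Erg (0.81), and by Bambi (0.81). Tbx3 was most like Zic1 (0.70), Tbx4 most like Rhpn1 (0.62), Tbx15 most like Zbtb14 (0.77) and Pitx1 most like Tk1 (0.72). The points share muscles, states and possibly mice, and no test was made on them.

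Ordered over the 9 groups, Tbx1 ran from 1.002 ± 0.58 CPM (SD, n = 3) in the healthy knock-in gastrocnemius through 4.98 ± 4.56 (n = 4) and 7.07 ± 5.78 (n = 3) in the wild-type and sick gastrocnemius, 28.2 ± 2.55 (n = 4), 29.1 ± 6.90 (n = 4) and 56.9 ± 12.3 (n = 3) in the wild-type, healthy and sick quadriceps, and 72.9 ± 15.6 (n = 4), 74.2 ± 10.498 (n = 4) and 139 ± 26.8 (n = 3) in the healthy, wild-type and sick tibialis. Of the 8 neighbouring pairs in this order 4 overlapped in range: wild-type and sick gastrocnemius, wild-type and healthy quadriceps, sick quadriceps and healthy tibialis, and healthy and wild-type tibialis. For Six2 the order ran from 6.13 ± 0.61 CPM (n = 4) in the wild-type tibialis to 44.0 ± 5.49 (n = 3) in the healthy knock-in gastrocnemius, and 7 of 8 neighbouring pairs overlapped. For each of the other 6 members all 8 neighbouring pairs overlapped.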

How the data were processed

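Muscle RNA was sequenced in 32 libraries of 9 groups, and the 8 members and the lists compared with them were chosen with earlier results of these data known. Per the submitters' processing notes, cutadapt 1.18, TopHat2 2.1.1, HTSeq 0.6.0 and DESeq2 1.22.1 were used with GRCm38; settings, strand option and annotation release are not stated there. The deposited table holds the authors' raw read counts per gene, their normalized values, and the log2 fold change and adjusted p-value of their own state comparisons. Of 54838 genes 6252 carry no values, and 48586 were used.

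Counts were scaled by TMM (trims 0.3 and 0.05) and fitted with limma-voom (limma 3.58.1, R 4.3.3). It was chosen over a count model because the deposited columns mix counts and missing marks. The genes used had whole counts in every library, so a count model could also have been fitted. Genes passed a minimum count of 10 and a summed count of 15. The 3 states of a muscle, or the 3 muscles of a state, shared a fit, and differences of state differences used 1 fit of all libraries. Tests were two-sided, Benjamini-Hochberg adjusted over all genes tested, with 0.05 as threshold. Fold changes are log2 ± SE. Named were the 8 members, up to 2 called genes per direction of each other list, and genes among the 3 most like each member; 1 item is not reported here. Scripts were tested on simulated data. Totals of 7685164 to 42588233 counts set the precision of low genes such as Pitx1.

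Same-numbered libraries of different muscles deviated together in 26 of 28 pairs (r from 0.02 to 0.56 over genes, the threshold being 0.1), which was met by every pair in all comparisons but wild-type tibialis with gastrocnemius, and the sick mice gave 2 pairs per comparison. Between states 6 of 29 pairs passed it, so the numbers may pair muscles but not states. The main fits used no block, and their muscle comparisons leave any such pairing out. Alternatives were the deposited size factors, no low-count filter, limma-trend (prior count 2), another set of libraries in the fit, the replicate block, each library left out and, chosen after seeing the data, the gastrocnemius pair that stood apart left out. Windows before gene starts came from RefSeq (GRCm38.p6), which held 4 of the 8 members.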

Additional observations from a re-analysis of the deposited data

Results flagged for a closer look

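In 3 of 40 groups of 4 libraries tested, 1 library lay far from the other 3 for its gene, where chance flags about 1 in 20. Tbx3 read 16.7 CPM in wild-type quadriceps replicate 4 against 5.78, 6.01 and 7.48 CPM in the others. Tbx3 also read 11.9 CPM in wild-type tibialis replicate 4 against 6.83, 6.94 and 7.46 CPM. Tbx15 read 375 CPM in wild-type gastrocnemius replicate 3, which stood apart on the muscle scale, against 219, 230 and 233 CPM.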

How the results depend on the processing

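No fitted difference of a member reversed its called direction under any alternative. Of the members' single values, 1649 of those leaving out 1 library stayed on their side of the threshold, 29 lost the call and 6 gained it; under the other settings 997 stayed, 9 lost it and 10 gained it. Without the low-count filter the members called were 1 between wild-type tibialis and gastrocnemius, 2 between healthy tibialis and quadriceps, 1 between sick tibialis and gastrocnemius and 1 between sick and wild-type quadriceps. With limma-trend there was 1 in wild-type tibialis against quadriceps, 1 in sick tibialis against gastrocnemius and 1 in sick against wild-type quadriceps. With the replicate block there were 2 in healthy tibialis against quadriceps and 1 in sick against wild-type quadriceps, and no other member count moved by over 1.5 times. In 1 fit of all 32 libraries there were 0 in healthy tibialis against quadriceps, 1 in each sick comparison with the gastrocnemius, 2 in sick against healthy gastrocnemius, and 0 in sick against healthy quadriceps, sick against wild-type tibialis and sick against healthy tibialis. Without the pair that stood apart there was 1 in sick tibialis against gastrocnemius and 1 in sick against healthy gastrocnemius. Leaving out 1 library gave 1 to 2 members in wild-type tibialis against gastrocnemius and against quadriceps, 0 to 1 in healthy quadriceps and in sick tibialis against gastrocnemius, and, for sick against wild type, 0 to 1 in the gastrocnemius, 0 to 2 in the quadriceps and 1 to 3 in the tibialis. For sick against healthy it gave 0 to 3 in the quadriceps and 0 to 1 in the tibialis. The cause of these changes was not tested. Between states, where libraries share only a number, the block moved the genes called between sick and wild type from 2488 to 879 in the quadriceps and from 2621 to 1260 in the tibialis. Low counts limit Pitx1.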
